A study of Mus musculus with 12 samples.

Results

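The 10 chemokine ligand genes described here are *Ccl2*, *Ccl3*, *Ccl4*, *Ccl6*, *Ccl7*, *Ccl9*, *Cxcl1*, *Cxcl2*, *Cxcl12* and *Cxcl16*, out of 24813 genes with a symbol in an RNA-seq table of mouse female germline stem cells (FGSCs). They were found through the RefSeq accessions of 15 of the 41388 listed transcripts. They were chosen by name with the results of these counts already known, so the levels and changes of the 10 genes are given as a description, and how many of them changed is not evidence of a change in chemokines as a class.

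The study asked what *Stella* (listed as *Dppa3*), a maternal and germline gene, does in FGSCs, by knocking it out and by overexpressing it. It comprised 12 libraries in 4 groups of 3. The group KO (labelled dppa3-ko) was 1 *Stella*-knockout clone, picked at random after CRISPR editing with lentiviral sgRNAs, and KO-con (DPPA3-ko-control) is named in the labels only as its control. The group Over (labelled DPAA3-over) carried the *Stella* coding sequence in a lentivirus, and Over-con (dppa3-over-control) carried the empty lentiviral vector. All 4 groups were C57BL/6 FGSCs past passage 20 that grew on mitotically inactivated STO feeder cells, themselves mouse embryo fibroblasts, in medium with leukemia inhibitory factor, epidermal and basic fibroblast growth factor, and glial cell line-derived neurotrophic factor. Neither the labels nor the methods state whether the 3 libraries of a group came from separate cultures, so a p-value measures only the spread between these libraries.

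Chemokines are small secreted proteins that draw cells along a gradient by binding receptors of the G protein-coupled class. Those with adjacent cysteines near the start of the protein are called CC ligands and those with a residue between them CXC ligands. CC ligands such as CCL2 mainly attract monocytes, CXC ligands such as CXCL1 attract neutrophils through CXCR2, and CXCL12 acts through CXCR4 and guides migrating primordial germ cells to the gonad.

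Levels are given in CPM, counts scaled to a common library size by edgeR's TMM method over all 12 libraries. The libraries held between 5611846 and 12866545 counts, the lowest being replicate 2 of Over-con, and 3 counts, taken as the floor, amount to 0.23 to 0.528 CPM in a library. This floor covers only the error of counting. *Dppa3* had 0 counts in all KO, KO-con and Over-con libraries and stood at 30.33 ± 1.85 CPM (SD, n = 3) in Over, so the counts do not distinguish the KO from its control by the targeted gene. Of 10 germ cell markers, *Ddx4* and *Tfap2c* had 0 counts in all libraries, and *Dazl*, *Pou5f1* and *Nanos3* had 1 count each over 12 libraries. Without *Ifitm3* and *Dppa3* the list summed to at most 5.276 CPM in a library, whereas 12 fibroblast markers summed to between 977.2 and 1769 CPM and 8 pan-hematopoietic markers to between 997.8 and 1371 CPM. Leaving out *Ifitm3*, whose level is not reported here, and *Dppa3* in Over, the germ cell markers were thus low or at 0 in these counts. For its FGSCs the paper reported RT-PCR of *Ddx4*, *Dazl* and other germline genes, and positive staining for MVH, OCT4 and STELLA. Of the counts with a symbol, 96.34% fell on genes with a single listed transcript. Genes with several listed transcripts, among them *Cxcl12* and *Cxcl16*, were as a class thinly counted. *Ddx4*, *Tfap2c*, *Dazl*, *Pou5f1* and *Nanos3* each have 2 listed transcripts, so their counts cannot show that they were not expressed. The germ cell marker *Mael*, with a single listed transcript, had 2 counts.

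8 of the 10 genes lie in small clusters, which is why the upstream sequences of adjacent pairs are shown. In the mm9 build, *Ccl2* (chr11:81849073-81850955, plus strand) and *Ccl7* (chr11:81859214-81861027, plus strand) are 8258 bases apart. On the same chromosome *Ccl9* (chr11:83386421-83392138, minus strand) and *Ccl6* (chr11:83401384-83406589, minus strand) are separated by 9245 bases, and *Ccl3* (chr11:83461346-83462857, minus strand) and *Ccl4* (chr11:83476086-83478185, plus strand) by 13228 bases. *Cxcl16* lies apart from them (chr11:70267485-70273486, minus strand). *Cxcl1* (chr5:91320267-91322141, plus strand) and *Cxcl2* (chr5:91332897-91334935, plus strand) are neighbours with 10755 bases between them, and *Cxcl12* stands alone (chr6:117118553-117131385, plus strand). *Ccl2* overlaps the gene model *Gm17268*, *Ccl6* overlaps *E230016K23Rik* and *Cxcl16* overlaps *Zmynd15*, and because the strand setting of the counting was not stated, their reads cannot be told apart with certainty.

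RefSeq promoters of the GRCm38.p6 build were found for 6 of the 10 genes (*Ccl3*, *Ccl6*, *Ccl9*, *Cxcl1*, *Cxcl2* and *Cxcl12*). Below are the 150 bases before the annotated start of *Cxcl1* and *Cxcl2*, neighbours at very different levels, and of *Ccl9* and *Ccl6*, likewise neighbours at very different levels. Capitals mark matches, on the strand of the gene, to the kappa B motif GGANTTTCC, to the AP-1 motif TGANTCA or to the TATA-like motif ATAAAAG.
Cxcl1, chr5:90891095-90891244, plus strand: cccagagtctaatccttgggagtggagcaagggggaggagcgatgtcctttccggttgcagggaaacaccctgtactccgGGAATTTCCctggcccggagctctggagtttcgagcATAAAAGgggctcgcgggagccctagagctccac
Cxcl2, chr5:90903749-90903898, plus strand: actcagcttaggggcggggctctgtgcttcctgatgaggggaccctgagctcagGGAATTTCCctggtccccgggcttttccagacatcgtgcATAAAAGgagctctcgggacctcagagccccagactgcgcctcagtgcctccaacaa
Ccl9, chr11:83578637-83578786, minus strand: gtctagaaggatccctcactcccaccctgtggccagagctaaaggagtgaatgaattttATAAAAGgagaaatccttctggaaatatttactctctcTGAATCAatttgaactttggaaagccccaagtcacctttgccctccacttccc
Ccl6, chr11:83593088-83593237, minus strand: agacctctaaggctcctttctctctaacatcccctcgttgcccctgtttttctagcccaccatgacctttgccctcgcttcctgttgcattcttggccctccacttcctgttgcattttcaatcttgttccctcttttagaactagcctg

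*Cxcl1* and *Cxcl2* carried the same 2 elements in the same order. In *Cxcl1* the kappa B match GGAATTTCC ran from -70 to -62 relative to the start and ATAAAAG from -34 to -28, and in *Cxcl2* they ran from -96 to -88 and from -57 to -51. Aligned over 150 bases, the pair was identical at 56.4% of columns, the highest of the 15 pairs among the 6 promoters, against 48.0% for *Ccl6* and *Ccl9*. *Ccl9* held TGAATCA from -53 to -47 and ATAAAAG from -91 to -85, with a further ATAAAAG on the opposite strand from -226 to -220. None of the 3 motifs was found on either strand within 250 bases of *Ccl3*, *Ccl6* or *Cxcl12*. Over the 32851 RefSeq promoters searched the same way, the kappa B motif occurred in 1.07%, the AP-1 motif in 6.75% and the TATA-like motif in 4.83%. No match overlapped another, and a match describes the sequence only.

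The 10 genes fell into 5 that were readily counted and 5 whose counts were close to the limit of detection. *Ccl2*, *Ccl7*, *Ccl9*, *Cxcl1* and *Cxcl12* were never below 20.06 CPM in a library and made up between 98.1% and 99.2% of the summed level of the 10. *Cxcl2*, *Ccl3*, *Ccl4*, *Ccl6* and *Cxcl16* never exceeded 2.464 CPM. The plot of group means shows this gap in every group.

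**Figure D1:**
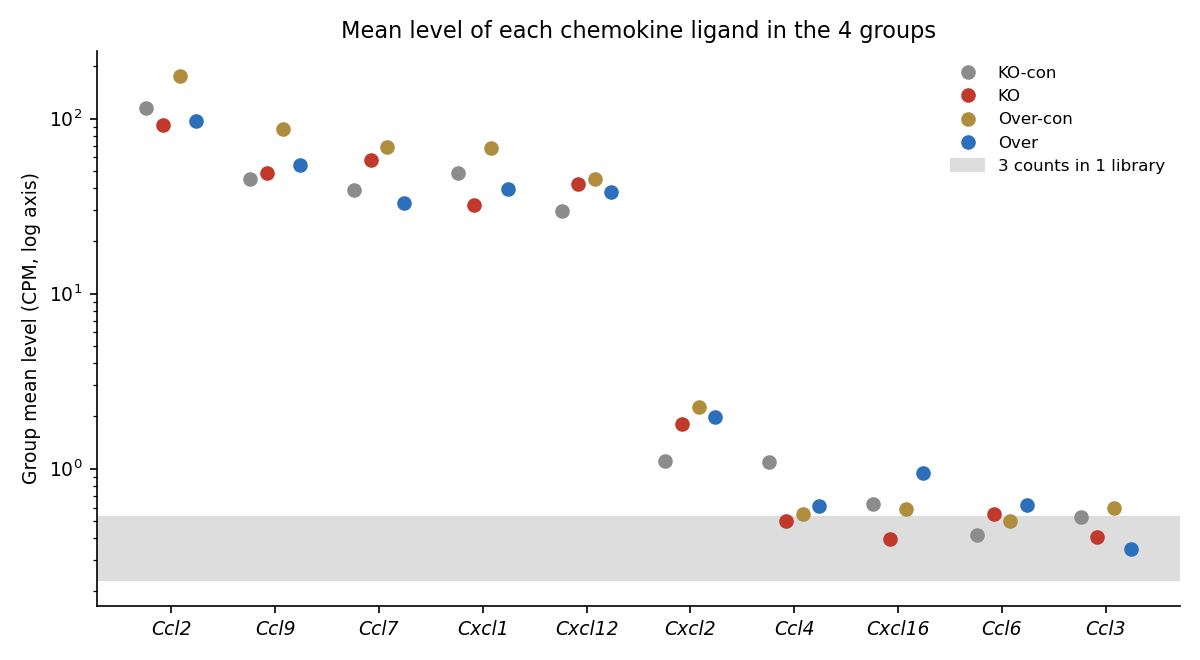
Mean level (CPM, log axis) of each of the 10 chemokine ligand genes in KO-con, KO, Over-con and Over, 3 libraries a group. The grey band is the range of 3 counts in a single library (0.23 to 0.528 CPM); *Ccl2*, *Ccl9*, *Ccl7*, *Cxcl1* and *Cxcl12* lie far above it and *Ccl4*, *Cxcl16*, *Ccl6* and *Ccl3* at or near it.

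Per kilobase of transcript, *Ccl2* was the most abundant of the 8 genes with a single listed transcript. Its mean over 12 libraries was 147.4 CPM per kilobase, and it exceeded the next gene, *Ccl7* at 62.03 CPM per kilobase, in 12 of 12 libraries. *Ccl7* and *Cxcl1* (49.37 CPM per kilobase) were not separated, *Ccl7* being the higher in 7 of 12 libraries. *Cxcl1* was above *Ccl9* (19.51 CPM per kilobase) in 12 of 12, and *Ccl9* above *Ccl4* (1.048 CPM per kilobase) in 12 of 12. *Ccl4*, *Cxcl2* (0.973 CPM per kilobase), *Ccl3* (0.6135 CPM per kilobase) and *Ccl6* (0.3632 CPM per kilobase) overlapped, each exceeding the next in 6 to 8 of 12 libraries. Lengths were those of the longest coding transcript in the mm9 annotation, and 3.43% of the 50-base stretches of *Cxcl2* and 1.62% of those of *Ccl9* recur in other genes. Within a library, *Cxcl1* stood between 26.53 and 99.6 times above its neighbour *Cxcl2* per kilobase.

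The summed level of the 10 genes was highest in Over-con. It was 448.2 ± 33.87 CPM (SD, n = 3) in Over-con and 266.4 ± 12.46 CPM in Over, 280.9 ± 37.63 CPM in KO-con and 276.6 ± 64.26 CPM in KO. The Over-con libraries, at 427.2 to 487.3 CPM, lay above all 9 others, which ran from 206.1 to 331.9 CPM. The Over mean minus the Over-con mean was -181.8 CPM for the sum and -77.64 CPM for *Ccl2* alone.

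**Figure D2:**
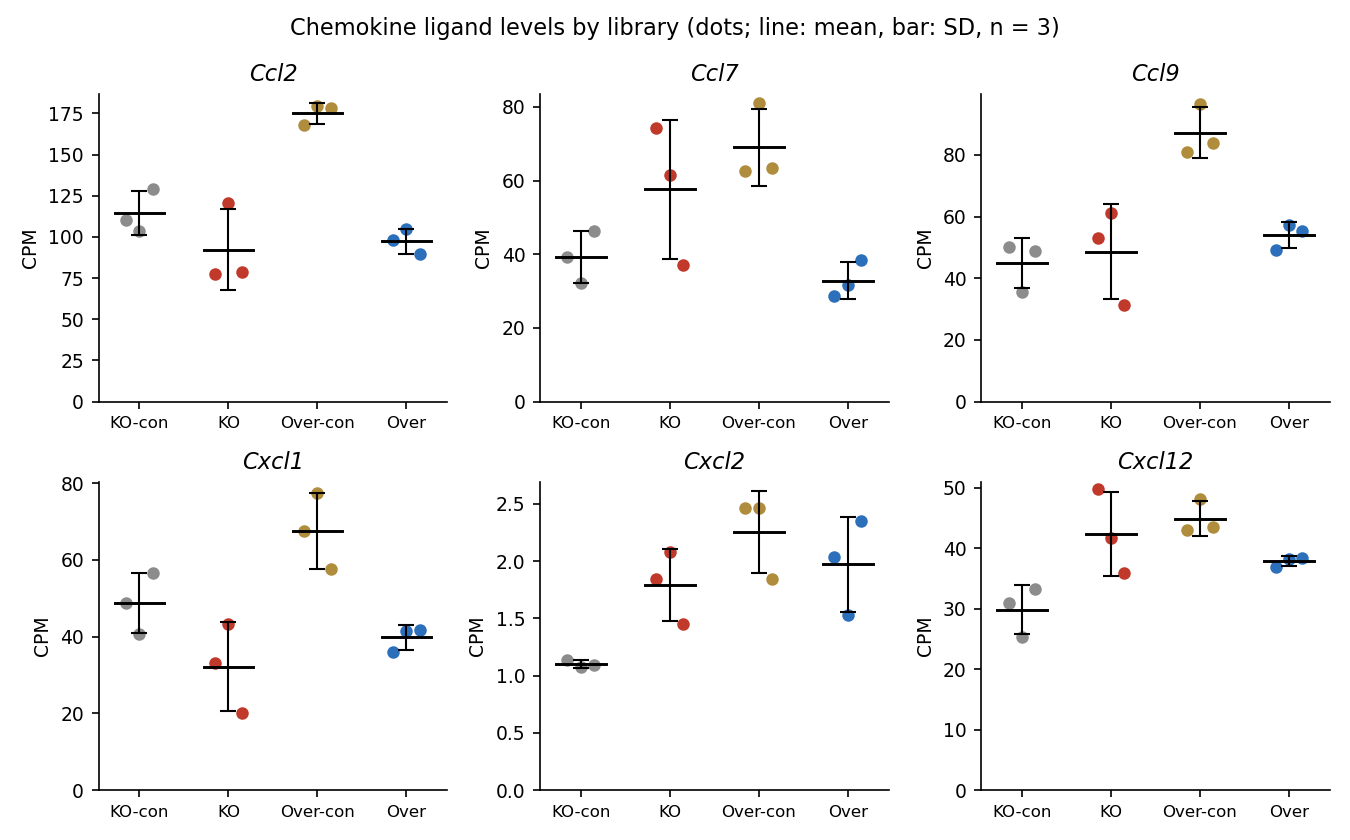
Level (CPM, linear axis from 0) of the 6 tested chemokine ligand genes in each of 12 libraries, as dots, with the group mean as a line and the SD as a bar (n = 3). For *Ccl2*, *Ccl7*, *Ccl9*, *Cxcl1* and *Cxcl12* the 3 Over libraries sit below the 3 Over-con libraries, as they do for 10.5% of all transcripts tested, while KO and KO-con overlap for *Ccl2*, *Ccl7*, *Ccl9* and *Cxcl1*.

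In Over against Over-con, the comparison that asks what overexpression of *Stella* did, the monocyte attractants *Ccl2* and *Ccl7*, the CCR1 ligand *Ccl9* and the neutrophil attractant *Cxcl1* were lower. *Ccl2*, the main monocyte attractant, stood at 167.9, 179.5 and 178.0 CPM in Over-con and at 97.89, 104.9 and 89.59 CPM in Over. The groups did not overlap, and the Over mean was 0.557 times the Over-con mean (97.46 ± 7.66 against 175.1 ± 6.318 CPM). *Ccl7*, which binds several CC receptors and also attracts monocytes, stood at 62.52, 80.96 and 63.46 CPM in Over-con and at 28.68, 31.55 and 38.38 CPM in Over. Its fall was the widest of the 6 tested genes, to 0.477 times (32.87 ± 4.984 against 68.98 ± 10.39 CPM), again without overlap.

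*Ccl9*, a rodent ligand of CCR1, stood at 81.07, 96.63 and 83.93 CPM in Over-con and at 49.13, 57.35 and 55.38 CPM in Over. All Over libraries were below all Over-con libraries, and the ratio of means was 0.619. *Cxcl1* stood at 67.44, 77.44 and 57.64 CPM in Over-con and at 36.08, 41.58 and 41.70 CPM in Over, also without overlap, at 0.589 times. *Cxcl12*, the ligand of CXCR4, stood at 42.95, 48.23 and 43.57 CPM in Over-con and at 36.92, 38.28 and 38.38 CPM in Over. These groups did not overlap either, but the shift was small, at 0.843 times. *Cxcl2*, a second CXCR2 ligand, stood at 2.460, 2.464 and 1.844 CPM in Over-con and at 2.036, 1.531 and 2.352 CPM in Over, and the groups overlapped.

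On the log2 scale the fitted changes in Over, each with its standard error, were -1.06 ± 0.12 for *Ccl7*, -0.84 ± 0.07 for *Ccl2*, -0.74 ± 0.11 for *Cxcl1*, -0.68 ± 0.09 for *Ccl9*, -0.23 ± 0.09 for *Cxcl12* and -0.19 ± 0.30 for *Cxcl2*. The test of each transcript was edgeR's quasi-likelihood test, and a call is a Benjamini-Hochberg adjusted p under 0.05 over all transcripts tested. *Ccl2*, *Ccl7*, *Ccl9* and *Cxcl1* were called lower, 4 of the 6 tested and 4 of the 10 genes, and *Cxcl12* and *Cxcl2* were not. The Over libraries lay wholly below the Over-con libraries for 5 of the 6 genes, and for 985 (10.5%) of all 9401 transcripts tested. Of the 9401 transcripts tested in this comparison, 155 (1.65%) were called, 72 (0.766%) higher and 83 (0.883%) lower. Adding the study's threshold of an absolute log2 fold change over 1 left 16 transcripts (0.17%), among them *Ccl7* alone of the 10 genes. The median change of the 6 genes was -0.71, against -0.0012 over all transcripts tested. Since the choice of the 10 genes used this comparison, nothing is read from these counts. For any single gene, 3 libraries a side put the smallest two-sided p of an exact permutation test at 0.10.

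These calls depended on the control. Set against KO-con in place of Over-con, *Ccl2* in Over had a log2 fold change of -0.22 and *Cxcl1* one of -0.28, both still called lower. *Ccl7*, at -0.25, was no longer called, and *Ccl9* turned to 0.28 and *Cxcl12* to 0.36, both called higher. Leaving out each of the 6 libraries in turn kept *Ccl2*, *Ccl7*, *Ccl9* and *Cxcl1* called, with log2 fold changes of -1.17 to -0.93 for *Ccl7* and of -0.73 to -0.60 for *Ccl9*.

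In KO against KO-con, the comparison that asks what the loss of *Stella* did, *Cxcl12* was higher and the other 5 tested genes had no call. *Cxcl12* stood at 30.93, 25.33 and 33.20 CPM in KO-con and at 49.75, 41.63 and 35.85 CPM in KO. Every KO library was above every KO-con library, by a narrow gap between replicate 3 of KO and replicate 3 of KO-con, and the ratio of means was 1.42 (42.41 ± 6.983 against 29.82 ± 4.053 CPM). *Cxcl12* is listed with 3 transcripts, of which NM_021704 carried these counts. A second, NM_001012477, stood at 2.905 to 4.928 CPM in the 12 libraries with a log2 fold change of -0.15 ± 0.24 in KO, and the last had no counts. The higher level was thus seen for 1 of the 2 counted transcripts, the other having only 28 to 58 counts a library. The 2 were not tested against each other. With counts summed per gene, *Cxcl12* was still called higher in KO (log2 fold change 0.45).

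*Ccl7* stood at 39.21, 32.22 and 46.41 CPM in KO-con and at 74.17, 61.58 and 37.12 CPM in KO. Replicates 1 and 2 of KO lay above all of KO-con, and replicate 3 lay within its range. *Ccl2* stood at 110.0, 103.9 and 129.4 CPM in KO-con and at 77.62, 120.5 and 78.51 CPM in KO, and *Ccl9* at 50.07, 35.62 and 48.96 CPM against 53.09, 61.23 and 31.41 CPM. Both pairs of groups overlapped. *Cxcl1* stood at 48.83, 40.81 and 56.59 CPM in KO-con and at 33.17, 43.28 and 20.06 CPM in KO, where replicate 2 lay inside the range of the control and replicates 1 and 3 below it. *Cxcl2* stood at 1.138, 1.074 and 1.091 CPM in KO-con and at 1.843, 2.082 and 1.452 CPM in KO, without overlap but on 9 to 24 counts a library.

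The fitted log2 fold changes in KO were 0.71 ± 0.34 for *Cxcl2*, 0.56 ± 0.19 for *Ccl7*, 0.52 ± 0.13 for *Cxcl12*, 0.13 ± 0.18 for *Ccl9*, -0.30 ± 0.14 for *Ccl2* and -0.58 ± 0.19 for *Cxcl1*. *Cxcl12* was the 1 gene of the 6 tested that was called. The KO libraries lay wholly above the KO-con libraries for *Cxcl12* and *Cxcl2*, 2 of the 6, and for 1445 (15.3%) of all transcripts tested. Of 9457 transcripts tested here, 1115 (11.8%) were called, 551 (5.83%) higher and 564 (5.96%) lower, and 161 (1.7%) also had an absolute log2 fold change over 1, none of them among the 10 genes. Nothing is read from this count either. The median change of the 6 genes was 0.32, against 0.0067 over all transcripts tested. The KO libraries spread more widely than the others for most of these genes, the SD of *Ccl7* being 18.84 CPM in KO and 7.096 CPM in KO-con.

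Single libraries decided several of these calls. *Cxcl12* lost its call without replicate 2 of KO-con (log2 fold change 0.41) or without replicate 2 of KO (0.53), and against Over-con its change was -0.08. *Ccl7* was called higher without replicate 3 of KO (0.80). *Cxcl1* was called lower without replicate 1 of KO (-0.60) or replicate 2 of KO (-0.88), and *Ccl2* without replicate 2 of KO (-0.54). Against Over-con, *Ccl2* (-0.92), *Ccl9* (-0.84) and *Cxcl1* (-1.06) were called lower in KO, and *Ccl7* (-0.255) was not called.

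The adjacent genes *Ccl2* and *Ccl7* did not keep a fixed ratio. *Ccl7* divided by *Ccl2* in CPM was 0.9556, 0.511 and 0.4728 in the KO libraries, 0.3565, 0.3101 and 0.3587 in KO-con, 0.3724, 0.451 and 0.3565 in Over-con, and 0.293, 0.3008 and 0.4284 in Over. The 3 KO libraries thus held the 3 highest ratios of the 12, with replicate 1 well apart from the others. This ratio was looked at after its values were seen and has no test.

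The effects of knockout and overexpression were also set against each other in 1 fit of all 12 libraries, as the KO change minus the Over change. The difference was 1.62 ± 0.26 on the log2 scale for *Ccl7*, 0.80 ± 0.24 for *Ccl9* and 0.75 ± 0.16 for *Cxcl12*, all 3 called by edgeR. It was 0.89 ± 0.44 for *Cxcl2*, 0.54 ± 0.18 for *Ccl2* and 0.16 ± 0.25 for *Cxcl1*, none of them called by edgeR. DESeq2 called *Ccl2* (0.53), as did edgeR without a filter on low counts, and neither DESeq2 nor limma-voom called *Ccl9*. *Ccl7* thus moved in opposite directions, higher in KO and lower in Over, although only the latter was called on its own, while *Ccl2* and *Cxcl1* were below their own control on average in both. Over all 9903 transcripts tested, 856 (8.64%) were called for such a difference. *Ccl7* and *Cxcl12* stayed called under 20 of 20 alternative settings and *Ccl9* under 9 of 20. *Ccl9* lost its call without replicate 2 of KO-con, replicate 1 or 2 of KO, replicate 1 or 2 of Over-con, or any replicate of Over, its difference lying between 0.58 and 1.04 over all libraries left out. *Ccl2* was called without replicate 3 of KO-con, replicate 1 of KO or replicate 3 of KO, its difference lying between 0.28 and 0.64.

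The controls KO-con and Over-con also differed from each other in these genes. In KO-con against Over-con, *Ccl9* had a log2 fold change of -0.95 ± 0.11, *Ccl7* of -0.80 ± 0.12, *Ccl2* of -0.61 ± 0.08, *Cxcl12* of -0.58 ± 0.11 and *Cxcl1* of -0.46 ± 0.12, and all 5 were called lower. *Cxcl2*, at -1.002 ± 0.35, was not. For each of the 6 genes all KO-con libraries lay below all Over-con libraries, as they did for 1557 (16.7%) of all transcripts tested. Among 9321 transcripts tested, 1516 (16.3%) were called, 753 (8.08%) higher and 763 (8.19%) lower in KO-con. *Cxcl1* lost its call without replicate 1 of KO-con (-0.46) or replicate 2 of KO-con (-0.34), and *Cxcl2* was called without replicate 3 of Over-con (-1.15). This comparison shares its libraries with the other comparisons, so its values are not independent of them.

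**Figure D3:**
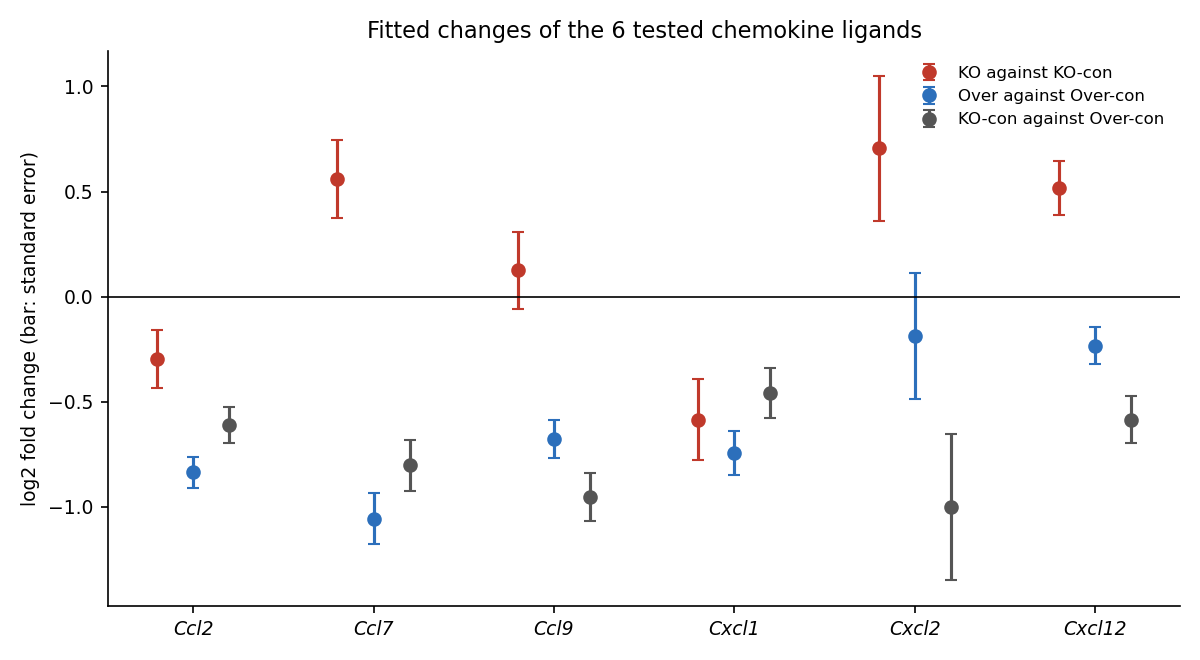
Fitted log2 fold change (bars: standard error) of the 6 tested chemokine ligand genes in 3 comparisons: Over with Over-con, KO with KO-con, and KO-con with Over-con (3 libraries a group). The Over points run from -1.06 (*Ccl7*) to -0.19 (*Cxcl2*), the KO points lie on both sides of 0, and the points between the controls are all below 0.

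*Ccl3*, *Ccl4*, *Ccl6* and *Cxcl16* had too few counts to be tested in any comparison, with totals over 12 libraries of 58, 85, 61 and 75 for their most counted transcript. *Ccl3*, a ligand of CCR1, had 1 to 12 counts a library, and its group means ran from 0.347 CPM in Over to 0.598 CPM in Over-con. *Ccl4*, which attracts monocytes and T cells, stood at 1.138, 1.432 and 0.7271 CPM in KO-con and at 0.3455, 0.3469 and 0.8169 CPM in KO, and these groups overlapped. Its Over-con libraries, at 0.7175, 0.352 and 0.5822 CPM, lay below those of KO-con by a narrow gap, on 2 to 7 counts a library. *Ccl6*, the neighbour of *Ccl9*, had 0 to 9 counts a library. *Cxcl16*, a membrane-bound ligand of CXCR6 that is also shed, is listed with 4 transcripts, and its reads fell only on the noncoding NR_151497 (75 counts) and NR_151496 (11 counts), so that no level of the coding transcript can be given. With so few counts, differences between groups in these 4 genes were not tested.

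The FGSCs grew on feeder cells, and bulk counts cannot tell fewer cells of a type from less RNA per cell. The 12 fibroblast markers summed to 1573, 1697 and 1769 CPM in Over-con, 1400, 1449 and 1418 CPM in Over, 1209, 1117 and 1316 CPM in KO-con and 1238, 1399 and 977.2 CPM in KO. Of that sum 92.4% came from *Col1a1*, *Col1a2*, *Col3a1* and *Col5a1*, whereas *Pdgfrb* and *Sparc* had 0 counts and *Lum* and *Postn* 4 and 1. *Pdgfrb*, *Sparc* and *Postn* have several listed transcripts, and the thin counting of such genes limits what these counts show. The sum was highest in Over-con, as were *Ccl2*, *Ccl9* and *Cxcl1*. For *Ccl7* and *Cxcl12* replicate 1 of KO, at 74.17 and 49.75 CPM, was not below all Over-con libraries. Replicate 3 of KO had both the lowest sum and the lowest *Ccl9* and *Cxcl1* of the 12 libraries. The lowest *Ccl2* was in replicate 1 of KO (77.62 CPM), the lowest *Ccl7* in replicate 1 of Over (28.68 CPM) and the lowest *Cxcl12* in replicate 2 of KO-con (25.33 CPM). In Over against Over-con the ratio of means was 0.847 for the fibroblast sum and 0.594 for the sum of the 10 chemokine genes. Of 8 tested fibroblast markers 0 were called by edgeR, beside 1.65% of all transcripts, against 1 by DESeq2 and 1 by limma-voom. At an unadjusted p under 0.05 in edgeR were 6 of the 8, beside 1222 of all 9401 transcripts tested. In KO-con against Over-con the ratios were 0.723 and 0.627, and 4 of the 8 markers were called lower, beside 8.19% of all transcripts. In KO against KO-con they were 0.992 and 0.985, with 2 of the 8 called lower, beside 5.96% of all transcripts. The part of the feeder cells in the chemokine levels was not tested.

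**Figure D4:**
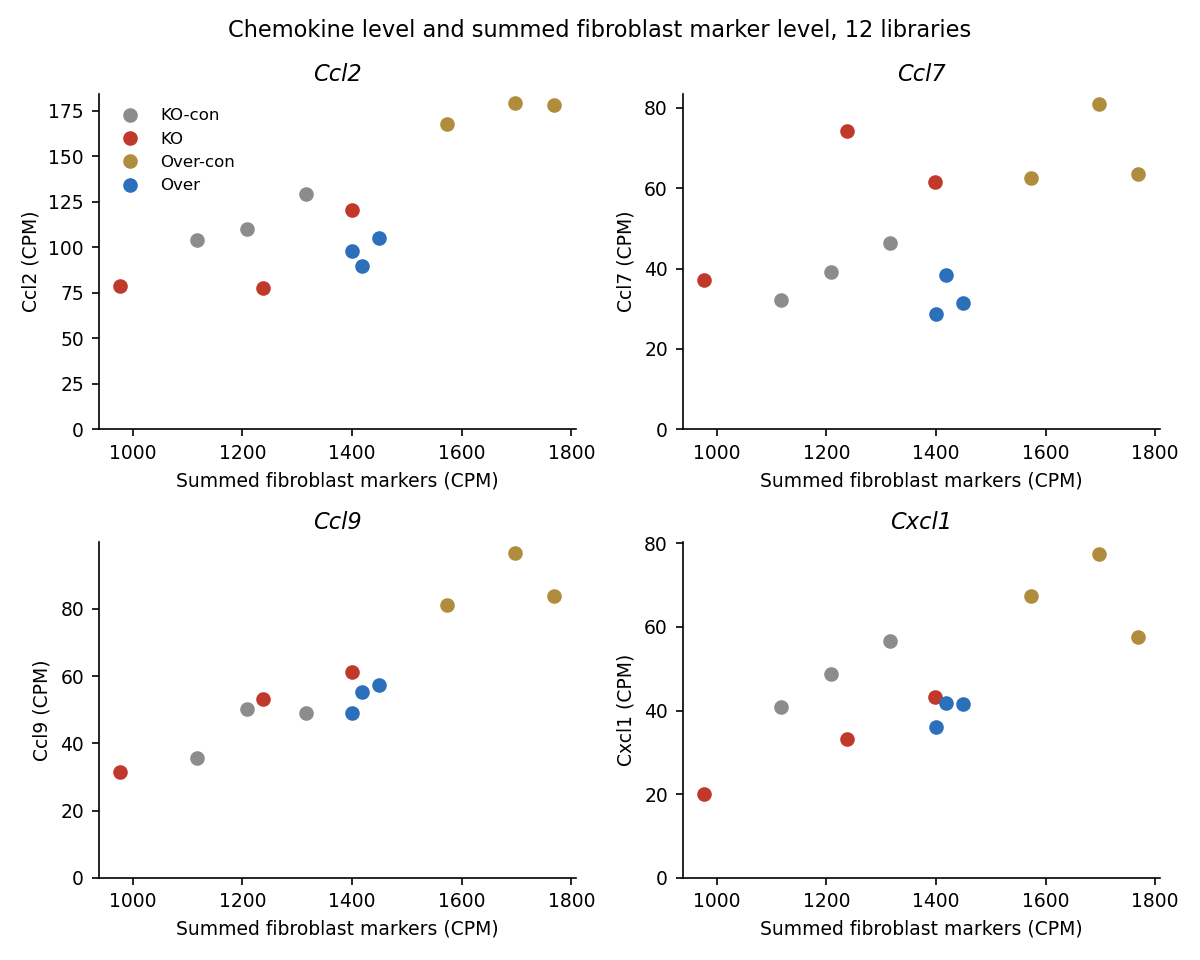
Level (CPM) of *Ccl2*, *Ccl7*, *Ccl9* and *Cxcl1* against the summed level (CPM) of 12 fibroblast markers, 1 dot per library, coloured by group. The 3 Over-con libraries lie at the right and top for *Ccl2* and *Ccl9*, and replicate 3 of KO lies furthest to the left, at 977.2 CPM.

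Lists of blood cell markers were summed in the same way. The 8 pan-hematopoietic markers summed to 997.8 to 1119 CPM in KO-con and 1088 to 1253 CPM in KO. They summed to 1255 to 1371 CPM in Over-con and 1109 to 1183 CPM in Over. The 12 mast cell markers summed to 372.2 to 431.5 CPM in KO-con, 1149 to 1230 CPM in KO, 760.8 to 864.2 CPM in Over-con and 648.2 to 668.5 CPM in Over, and 98.8% of that was *Cpa3*, while *Tpsab1*, *Fcer1a* and *Ms4a2* had 0 counts. The 12 macrophage and monocyte markers summed to 186.3 to 206.3 CPM in KO-con, 232.9 to 271.4 CPM in KO, 222.7 to 244.1 CPM in Over-con and 234.1 to 242 CPM in Over. *Fcgr1* and *Cd68* made up 94.8% of it, and *Adgre1*, *Itgam*, *Cd163*, *Ly6c2* and *C1qa* had 0 counts. Of the genes at 0, *Ms4a2*, *Adgre1*, *Itgam*, *Cd163* and *Ly6c2* have several listed transcripts, where thin counting limits what a 0 shows. *Tpsab1*, *Fcer1a* and *C1qa* have a single listed transcript. In Over against Over-con the ratio of means was 0.8112 for the mast cell list, 1.016 for the macrophage list and 0.882 for the pan-hematopoietic list. In KO-con against Over-con these ratios were 0.5046, 0.8461 and 0.8165, and in KO against KO-con 2.887, 1.278 and 1.071. The part of such cells in the chemokine levels was not tested.

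Of 31 other chemokine ligands, 11 had 0 counts and 8 were tested in KO against KO-con, where 11.8% of all transcripts were called. *Cxcl10*, an interferon-induced ligand of CXCR3, was the 1 called, and it fell in KO, from 16.45, 22.55 and 28.36 CPM in KO-con to 6.565, 5.724 and 5.991 CPM (log2 fold change -1.87 ± 0.19, edgeR adjusted p = 8e-06). Its KO-con libraries stood above those of the other 3 groups, since Over-con (7.292 ± 1.629 CPM) and Over (7.405 ± 1.31 CPM) were level with KO, and KO-con was above Over-con by 1.66 ± 0.19 (edgeR adjusted p = 3e-06). The controls of *Cxcl10* thus stood in the opposite order to those of *Ccl2*, *Ccl7*, *Ccl9* and *Cxcl1*. *Ccl5*, which attracts T cells, and *Cx3cl1*, a membrane-bound chemokine, had KO-con means of 12.3 and 10.1 CPM and no call. *Cxcl5*, a further CXCR2 ligand, stood at 9.122, 12.5 and 8.733 CPM in Over-con and at 4.996, 5.972 and 7.27 CPM in Over, without overlap, and did not pass the test (log2 fold change -0.70 ± 0.19, edgeR adjusted p = 0.091). In Over 0 of the 8 tested were called by edgeR, DESeq2 or limma-voom, where edgeR called 1.65% of all transcripts. At an unadjusted p under 0.05 in edgeR were 2 of them, beside 1222 of all 9401 transcripts.

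Among 24 chemokine receptors, *Cxcr2*, the receptor of CXCL1 and CXCL2, carried 96.15% of the summed level, and 17 of the 24 had at most 20 counts over 12 libraries. *Cxcr2* stood at 324.2, 344.1 and 294.7 CPM in Over-con, 270.4, 269.4 and 264.8 CPM in Over, 173.6, 202.0 and 184.4 CPM in KO-con and 166.1, 156.8 and 167.2 CPM in KO. Both treated groups lay below their own control without overlap, but the changes did not pass the test, at -0.25 ± 0.07 in Over (edgeR adjusted p = 0.0784) and -0.19 ± 0.07 in KO (edgeR adjusted p = 0.123). Between the controls *Cxcr2* was lower in KO-con, with a log2 fold change of -0.77 ± 0.08 (edgeR adjusted p = 7.56e-07), the order that *Ccl2* and *Cxcl1* also showed. The receptors of the CC ligands were barely counted. *Ccr2*, the receptor of CCL2 and CCL7, had 0 counts, which over all libraries allows up to 0.0251 CPM, and *Ccr1*, a receptor of CCL3 and CCL9, had 8, each with a single listed transcript. *Cxcr4*, the receptor of CXCL12, had 0 counts on 2 listed transcripts, where the thin counting of such genes limits what a 0 shows. *Ccr10*, *Ccr4*, *Ackr4* and *Ccrl2* were tested as well. In KO and in Over 0 of the 5 tested receptors were called by edgeR, beside 11.8% and 1.65% of all transcripts. At an unadjusted p under 0.05 in edgeR were 2 and 1 receptors, beside 2402 of 9457 and 1222 of 9401 transcripts. DESeq2 called 1 receptor in Over and limma-voom 0 in either.

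Of 30 genes that act downstream of chemokine receptors, 17 were tested. *Rgs2* and *Rgs10*, regulators of G protein signaling, rose in KO (0.53 with an edgeR adjusted p = 0.0204 and 0.51 with an edgeR adjusted p = 0.0498), and the other 15 were not called. DESeq2 and limma-voom each called 1 of the 17 in KO. Over all transcripts tested, edgeR called 11.8% in KO. Between the controls edgeR called 9 of the 17, 7 of them lower in KO-con, beside 16.3% over all transcripts. In Over 0 of the 17 were called by edgeR, DESeq2 or limma-voom, where edgeR called 1.65% of all transcripts. At an unadjusted p under 0.05 in edgeR were 4 of the 17, beside 1222 of all 9401 transcripts. The most abundant were *Dock2*, a guanine nucleotide exchange factor for RAC in leukocytes, at 1617 CPM in KO-con and 2203 CPM in Over-con, the G protein alpha subunit genes *Gnai2* (863 and 1015 CPM) and *Gnai3* (575.8 and 526.5 CPM), and the small GTPase gene *Rap1b* (740.9 and 832.7 CPM). Of 10 enzymes that trim or shed chemokines, 5 were tested in KO and 3 were called by edgeR, beside 11.8% of all transcripts. There the proteases *Ctsg* (1.17, edgeR adjusted p = 9e-08) and *Cma1* (1.79, edgeR adjusted p = 0.00834) rose, both also mast cell genes, and *Mmp2* fell (-0.25, edgeR adjusted p = 0.0303). *Adam10*, the sheddase of CXCL16, had means of 308.5 CPM in KO-con and 331.5 CPM in KO and no call. In Over 0 of 4 enzymes were called by edgeR, DESeq2 or limma-voom, where edgeR called 1.65% of all transcripts. At an unadjusted p under 0.05 in edgeR was 1 of the 4, beside 1222 of all 9401 transcripts.

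Of 28 inducers and regulators of chemokine genes, 20 were tested in KO, where 8 fell and 2 rose, beside 5.96% called lower and 5.83% called higher over all transcripts. *Socs3*, an inhibitor of cytokine signaling, fell from 302.0, 275.8 and 291.6 CPM in KO-con to 156.1, 175.5 and 127.0 CPM in KO (-0.92 ± 0.10, edgeR adjusted p = 1.3e-05). *Nfkbia*, the inhibitor of NF-kappa B that NF-kappa B itself induces, fell from 115.1 to 70.91 CPM (-0.69, edgeR adjusted p = 0.00019). The AP-1 subunit genes *Junb* (-0.65) and *Jun* (-0.32), the phosphatase gene *Dusp1* (-0.62), *Zfp36* (-0.61), whose product destabilizes cytokine mRNA, the NF-kappa B subunit gene *Rel* (-0.58) and *Atf3* (-0.41) were also called lower. *Il13* (1.09, edgeR adjusted p = 0.00558) and *Tlr4* (0.45, edgeR adjusted p = 0.00248) rose. In Over, *Nfkbia* (-0.38, edgeR adjusted p = 0.0365), *Atf3* (-0.38, edgeR adjusted p = 0.0336) and the early response gene *Egr1* (-0.47, edgeR adjusted p = 0.04) fell, 3 of 19 tested, beside 0.883% called lower over all transcripts. The NF-kappa B subunit genes *Nfkb1* and *Rela* had no call in either comparison.

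*Cxcl1* had the widest range of group means among the 6 tested genes, 1.12 on the log2 scale. Among the transcripts whose levels followed it most closely over the 12 libraries, by the root mean square difference of centred log2 CPM among 9902 tested transcripts, were *Steap4* (0.1853) and *Zbp1* (0.2216). Among the 6 genes themselves, *Ccl2* and *Cxcl1*, on different chromosomes, were the closest pair at 0.2278, followed by *Cxcl2* and *Cxcl12* at 0.2379 and *Ccl2* and *Ccl9* at 0.2719. The adjacent genes were less alike, at 0.4447 for *Ccl2* and *Ccl7* and 0.5336, the largest of the 15 pairs, for *Cxcl1* and *Cxcl2*.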

How the data were processed

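RNA was measured by RNA-seq in 12 libraries, made with a stranded mRNA kit. After trimming and alignment with HISAT2 to the mm9 genome, the authors deposited raw read counts for 41388 RefSeq transcripts. The strand setting, the annotation release and the treatment of reads shared between transcripts are not given in the sources used here. Groups and replicate numbers came from the sample titles.

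Symbols were matched through RefSeq accessions (99.5% of transcripts), and each gene is represented by its most counted transcript. Every transcript was tested with edgeR 4.0.16 (R 4.3.3; TMM, filterByExpr, glmQLFit, glmQLFTest), by group only. Alternatives were DESeq2 1.42.0, limma-voom (limma 3.58.1), other size factors, other filters, 1 fit of all libraries, the other control group, a block for the replicate number, counts summed per gene, a fold change threshold and leaving out each library. Same-numbered libraries did not deviate together (correlations -0.152 to 0.0568), so the numbers were not taken to pair the samples. On simulated data the KO step, run on 9457 transcripts, recovered 67.2% of changes of 0.5 and 100% of changes of 2 on the log2 scale with 3 false calls. The Over step, run on 9401, recovered 65.7% and 100% with 7. The simulation gave all transcripts the same dispersion and changed only transcripts above a minimum expected count. These figures check the steps and need not hold for the real libraries. Within groups the chi-square per degree of freedom between libraries was 1.93 to 12.3.

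The 10 genes and all gene lists (other ligands, receptors, signaling, processing enzymes, regulators, cell type markers) were chosen with earlier results of these data known. Genes named beyond the 10 are the most counted of each list, those called there, the receptors of the 10 ligands, and *Dppa3*, except a few genes that are not reported here. Some were named after their values were seen: genes at or near 0 counts, *Rela*, and genes called with an absolute log2 fold change of at most 1. Positions came from the GENCODE M1 annotation of mm9. Promoter sequences were RefSeq's (GRCm38.p6), aligned with Biopython 1.88. Tables and plots used Python 3.11.15, pandas 2.3.3 and matplotlib 3.10.9.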

Additional observations from a re-analysis of the deposited data

Results flagged for a closer look

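The difference itself was tested with all 12 libraries in 1 edgeR fit. The KO change against its control differed from the Over change against its control for 3 of the 6 tested chemokine genes. Over all transcripts tested, 8.64% were called for such a difference. The call of *Ccl9* held under 9 of 20 alternative settings, and neither DESeq2 nor limma-voom made it. The KO change minus the Over change was 1.617 on the log2 scale for *Ccl7*, 0.8048 for *Ccl9* and 0.7497 for *Cxcl12*. For *Ccl7* this came from 0.56 in KO and -1.06 in Over, for *Ccl9* from 0.13 and -0.68, and for *Cxcl12* from 0.52 and -0.23. *Cxcl10*, outside the 10 genes, differed the other way, by -1.952. Each of these differences includes the difference between KO-con and Over-con. Mean *Ccl9* was lower in KO (48.58 CPM) than in Over (53.95 CPM), and lower in KO-con (44.88 CPM) than in Over-con (87.21 CPM). Mean *Cxcl12* was 42.41 CPM in KO and 37.86 CPM in Over, beside 29.82 CPM in KO-con and 44.91 CPM in Over-con. Mean *Ccl7* was 57.62 CPM in KO and 32.87 CPM in Over, beside 39.28 CPM in KO-con and 68.98 CPM in Over-con. With 1 knockout clone and 1 control group each, clone, line and *Stella* cannot be told apart.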

How the results depend on the processing

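In KO against KO-con, 1 of the 10 genes was called. That count was 2 with limma-voom, with all 12 libraries in 1 fit and with the replicate number as a block, 4 without a filter on low counts, 3 against the other control group and 0 with a fold change threshold. It was between 0 (without replicate 2 of KO-con) and 2 with a library left out. In Over against Over-con, 4 were called, and 1 with a fold change threshold. Against the other control group, the *Cxcl12* change in KO was -0.08052 and the *Ccl9* change in Over was 0.2805. The cause was not tested. Over all transcripts, the 1115 calls in KO became 737 against the other control group and 613 to 1271 with a library left out, below 1115 by over 1.5 times without replicate 1 (613) or 2 (664) or 3 (722) of KO-con or replicate 2 of KO (715). The 155 calls in Over became 302 without a filter, 67 with the replicate block, 2026 against the other control group and 48 (without replicate 3 of Over) to 719 (without replicate 3 of Over-con) with a library left out, each of the 6 libraries moving it by over 1.5 times. Between the controls the 1516 calls became 882 (without replicate 1 of KO-con) to 1988, with 998 without replicate 1 of Over-con. For the difference of effects the 856 became 536 to 1126, the lowest being without replicate 1 of KO-con (564), replicate 1 of Over-con (556), and replicate 1 (541) or 2 (536) of Over. The block changed the call of *Cxcl1* in KO, called lower at -0.62, and of *Ccl9* in the difference of effects, 0.79 and no longer called. Of the members' log2 fold changes under alternatives, 385 moved by at most the SD between libraries of a group and 12 moved further. The other 2, of genes called in the main fit, reversed. A change of sign in a gene without a call was not counted as reversed. For *Ccl9* in KO, for instance, the change was 0.13 in the main fit and -0.84 against the other control group. Depth limits *Ccl3*, *Ccl4* and *Ccl6*, which no comparison could test. *Cxcl16* could not be tested either, and as it has 4 listed transcripts, the thin counting of such genes limits what its counts show.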
